A study of Sus scrofa with 7 samples.

Results

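Receptor tyrosine kinases are the cell-surface receptors through which fibroblast growth factors, platelet-derived growth factors, insulin, ephrins and many other ligands act. Their genes were compared between porcine extra-embryonic endoderm (pXEN) cells, naïve-like embryonic stem cells (nESCs) and primed embryonic stem cells (primed ESCs). The members were a list of 52 gene symbols, taken as the rows of the deposited tables that carried these symbols. Of these, 50 were found among the 29510 genes listed, 40 by the name in the tables and 10 by their Ensembl identifier (CSF1R, DDR1, EPHB1, EPHB6, ERBB4, FGFR1, FGFR2, NTRK2, PDGFRB and TIE1). EPHA6 and LTK were not matched and were not analysed here. The pXEN cells, 3 lines, came from the inner cell mass of parthenogenetic blastocysts and were grown on mouse embryonic fibroblasts with serum, serum replacement, LIF, CHIR99021, dimethindene, minocycline and Y27632. The nESCs, 2 lines, were grown on mouse embryonic fibroblasts in serum replacement and N2B27 media with FGF, LIF, the MEK inhibitor PD0325901, CHIR99021, SB431542 and doxycycline. The primed ESCs, 2 lines, are given in the labels as converted from naïve-like ESCs and were grown on STO mouse fibroblasts in α-MEM with serum replacement, activin A, bFGF, EGF, LIF and insulin-transferrin-selenium. Each line gave 1 library, at passage 26, 26 and 23 for pXEN, 21 and 22 for nESC and 20 and 20 for primed ESC lines. Cell type therefore cannot be told apart from medium, feeder, derivation or passage, and all lines are cultured cells on mouse feeders. The sources used here do not state that the ESC lines came from separate embryos, so the p-values measure the spread between these lines.

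A receptor tyrosine kinase spans the membrane once, binds its ligand outside the cell and, on pairing with another receptor, phosphorylates tyrosines in its partner and in adaptor proteins that switch on the MAP kinase, PI3 kinase and phospholipase C pathways. Subfamilies are defined by their extracellular domains and share ligands. In the early embryo, FGF signaling through FGFR1 and FGFR2 steers inner cell mass cells toward the hypoblast, and PDGFRA is a classical marker of that lineage, while insulin, FGF and ERBB signals are common requirements of cultured pluripotent cells.

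Between 10408164 and 12995720 reads were counted on genes per library. The test was the quasi-likelihood F-test of edgeR on counts, fitted once to the 7 libraries over the 17447 genes kept by a filter on low counts. "Called" means a p under 0.05 after Benjamini-Hochberg adjustment. Levels are given as FPKM, which corrects counts for gene length and library size, in the order of the line numbers, and comparisons of levels between genes use FPKM only. The 8 extra-embryonic endoderm markers summed to between 1015 and 1053 FPKM in the pXEN lines and to between 9.27 and 12.3 in the ESC lines, although SOX7 had at most 3 counts in any library. The 8 pluripotency genes did not mark the ESCs as a list: they summed to 637 to 760 FPKM in the pXEN lines, 258 and 283 in the nESC lines and 764 and 826 in primed ESC lines. SOX2 was 102 to 154 FPKM in the ESC lines and at most 1.98 in pXEN lines, but NANOG, LIN28A, SALL4 and DPPA5 were higher in every pXEN line than in any ESC line, and POU5F1, a defining pluripotency gene, had at most 5 counts in any library. The authors reported OCT4 protein (POU5F1) in nESCs by staining and Western blotting, OCT4 in primed ESCs by staining, and pXEN cells negative for NANOG. Whether the POU5F1 row used captures its transcript was not tested. The library of pXEN line 2 stood apart: 15 fibroblast genes summed to 271 FPKM there, against 22.1 and 24.5 in pXEN lines 1 and 3, 64.3 and 82.3 in the nESC lines and 103 and 133 in primed ESC lines, and it held 38 counts on chromosome Y against at most 11 elsewhere. Among the endoderm markers it had AFP at 176 FPKM against 3.06 and 1.69 in pXEN lines 1 and 3, TTR at 24.5 against 6.49 and 1.64, and GATA6 at 49.2 against 96.6 and 90.2. In such bulk samples, fewer cells of a type and less RNA per cell cannot be told apart.

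Receptor tyrosine kinase transcripts were most abundant in pXEN cells, intermediate in primed ESCs and least abundant in nESCs. Their summed level was 1011, 849 and 1033 FPKM in the pXEN lines (964 ± 100, SD, n = 3), 721 and 720 in the primed ESC lines (720 ± 0.942, SD, n = 2) and 367 and 392 in the nESC lines (379 ± 17.7, SD, n = 2). No line of one type overlapped another type in this sum, which was 0.158%, 0.126% and 0.0645% of all FPKM in pXEN cells, primed ESCs and nESCs. Of the 50 genes, 46 passed the filter on low counts, and CSF1R, FLT4, MUSK and ALK did not. A gene with few counts elsewhere could pass only through the cell type where it was high.

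Against nESCs, 34 of the 46 genes tested were called in pXEN cells (73.9%), beside 54.5% of all genes tested. Of these, 29 were higher (63% of those tested, beside 28.3% of all genes) and 5 were lower (10.9%, beside 26.2%). Against primed ESCs, 31 were called (67.4%, beside 48.3% of all genes), with 16 higher (34.8%, beside 23.9%) and 15 lower (32.6%, beside 24.4%). In primed ESCs against nESCs, 30 were called (65.2%, beside 32.2% of all genes), with 29 higher (63%, beside 19%) and 1 lower (2.17%, beside 13.3%). The median log2 fold change over the genes tested was 2.14 for pXEN cells against nESCs, −0.01 for pXEN cells against primed ESCs and 2.20 for primed ESCs against nESCs, while over all genes it was 0.00, −0.01 and 0.01. Each cell type enters a pair of these comparisons, so they are not independent of each other. Fewer receptor genes were called lower in pXEN cells, against either ESC type, when a primed ESC line was left out. The same held against nESCs without nESC line 1. The number of all genes called lower fell in these fits as well, which leave 1 line in a group.

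**Figure D1:**
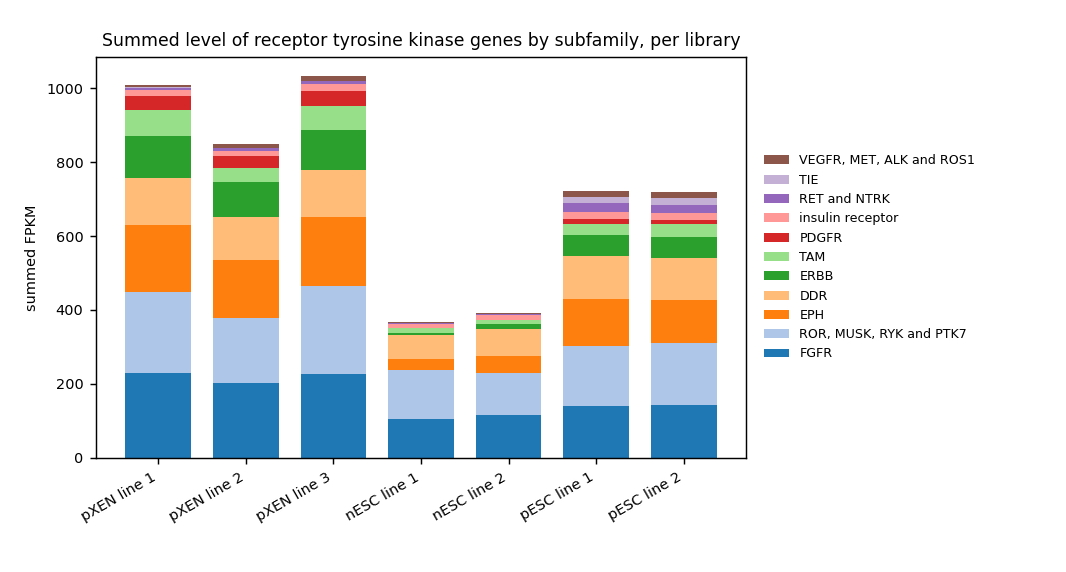
Stacked bars of the summed FPKM (vertical axis) of receptor tyrosine kinase genes in each of the 7 libraries, with 1 color for each subfamily. The pXEN bars reach 849 to 1033 FPKM, the primed ESC bars 720 and 721 and the nESC bars 367 and 392.

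The make-up of the repertoire differed as well as its size. FGF receptors held 22.7% ± 0.926 of the summed FPKM in pXEN cells, 29.2% ± 0.43 in nESCs and 19.6% ± 0.26 in primed ESCs (SD over lines). The ERBB family held 11% ± 0.445, 2.74% ± 0.905 and 7.87% ± 0.155, and the Eph receptors 18.2% ± 0.286, 10% ± 2.42 and 16.9% ± 1.11. In nESCs the ROR, MUSK, RYK and PTK7 group held 32.3% ± 5.13, against 22% ± 1.18 in pXEN cells and 22.9% ± 0.624 in primed ESCs. These lines did not overlap between nESCs and the other types for any of these 4 groups. The PDGF receptor family held 3.91% ± 0.144 in pXEN cells, 0.0819% ± 0.0461 in nESCs and 1.51% ± 0.151 in primed ESCs, and the TIE receptors 0.1%, 0.266% and 2.51%. By counts in place of FPKM, which weights long genes more, the insulin receptor family held 5.48% in place of 1.61% in pXEN cells, 10.9% in place of 3.54% in nESCs and 7.99% in place of 2.78% in primed ESCs.

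At 1 FPKM or more in every line of a type, 29 of the 50 genes were present in pXEN cells, 19 in nESCs and 35 in primed ESCs. All genes listed gave 13464, 13613 and 14311 by the same rule. A common set of 18 genes reached this level in all 3 types: DDR1, EGFR, EPHA2, EPHA4, EPHB2, EPHB3, EPHB4, ERBB2, FGFR1, FGFR2, FGFR3, IGF1R, NTRK2, PTK7, ROR1, ROR2, RYK and TYRO3. A further 8 reached it in pXEN cells and primed ESCs, namely AXL, DDR2, EPHA1, EPHB6, ERBB3, FGFR4, KIT and MET. MERTK, MST1R and PDGFRA reached it in pXEN cells and in neither ESC type. EPHA3, FLT1, INSR, NTRK3, PDGFRB, RET, TEK and TIE1 reached it in primed ESCs and in neither of the other types, and EPHA7 in both ESC types. No gene reached it in nESCs alone, and 12 genes stayed below it everywhere or in at least 1 line of each type (ALK, CSF1R, EPHA5, EPHA8, EPHB1, ERBB4, FLT3, FLT4, INSRR, KDR, MUSK and ROS1).

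The most abundant receptor transcripts in nESCs were PTK7, DDR1 and FGFR1, at 80.5 ± 11.4, 68.8 ± 8.95 and 68.3 ± 0.728 FPKM, and together made up 57.4% of the sum. DDR1 overlapped each of the others, and both PTK7 lines lay above both FGFR1 lines. FGFR2 followed at 32.3 ± 6.61, below both lines of FGFR1. The same 3 genes led in primed ESCs, in the order DDR1 (102 ± 3.94), PTK7 (93.5 ± 4.04) and FGFR1 (75 ± 3.46), with no overlap between neighbors, and made up 37.5%. In pXEN cells, FGFR1 (89.4 ± 11.1), DDR1 (82.2 ± 1.13) and FGFR3 (76.6 ± 10.9) made up 25.7%, and the first 7 genes made up 51.2% of the sum. ERBB2, PTK7, ROR2, TYRO3, EPHB6, ROR1 and RYK came next, and each of these 10 genes overlapped its neighbor in this order.

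**Figure D2:**
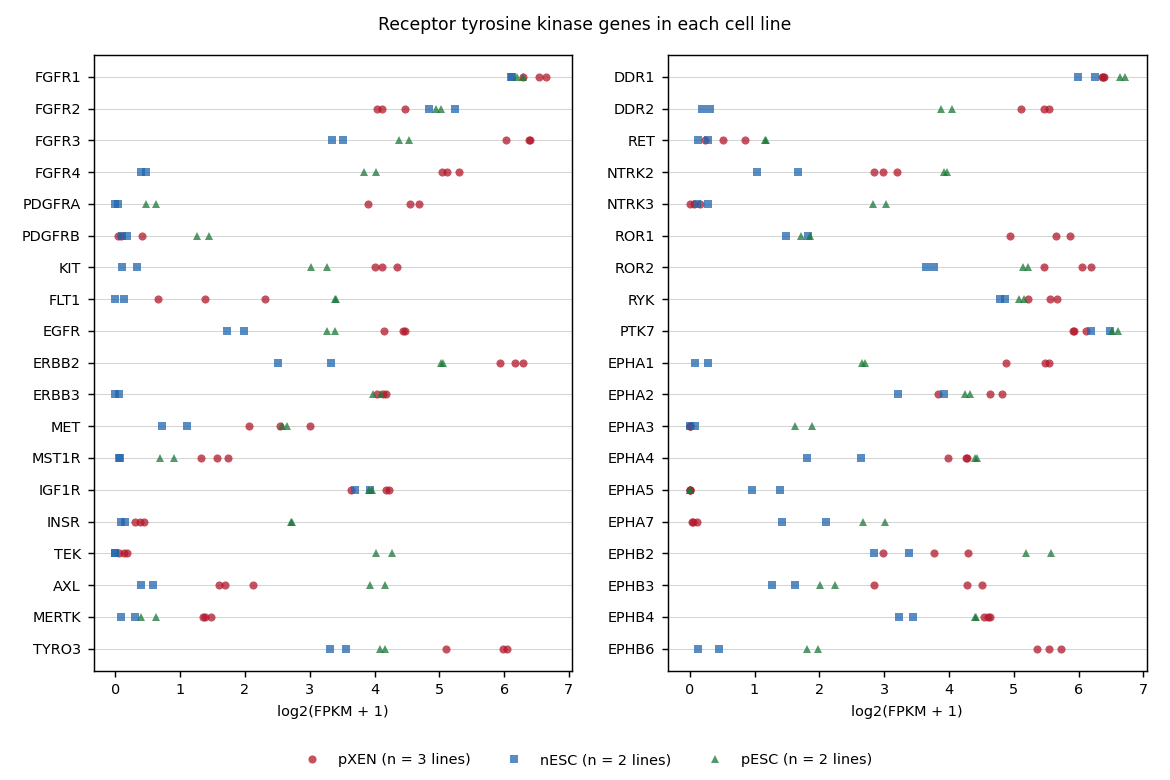
Levels of 38 receptor tyrosine kinase genes as log2(FPKM + 1) on the horizontal axis, with 1 point for each line (red circles, pXEN; blue squares, nESC; green triangles, primed ESC). FGFR1, DDR1 and PTK7 lie to the right in every type, whereas PDGFRA, EPHB6 and DDR2 are near 0 in the nESC lines and high in the pXEN lines.

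The FGF receptors bind FGFs together with heparan sulfate or Klotho proteins, and their 4 genes did not move as one. FGFR1 had 98.9, 77.2 and 92.2 FPKM in pXEN, 68.8 and 67.8 in nESC and 72.6 and 77.5 in primed ESC lines. In pXEN cells it differed, on the log2 scale, by 0.38 (SE 0.12, adjusted p = 0.0267) against nESCs and 0.26 (SE 0.12, adjusted p = 0.108) against primed ESCs. The pXEN lines lay above both nESC lines, but pXEN line 2 fell within the primed ESC range, and the first call was lost in 6 of the 7 fits that left out 1 line (adjusted p between 0.0507 and 0.117), with upper-quartile scaling (0.172) and with a replicate block (0.0839). Without pXEN line 2, FGFR1 was called higher than in primed ESCs (0.00492). FGFR2 ran the other way, at 15.4, 21.2 and 16.3 FPKM in pXEN, 27.6 and 37 in nESC and 31.7 and 29.9 in primed ESC lines. It was lower in pXEN cells by both comparisons, with log2 fold changes of −0.88 (SE 0.18, adjusted p = 0.00446) and −0.79 (SE 0.18, adjusted p = 0.00837), and no pXEN line reached an ESC line, although the second call was lost without primed ESC line 1 (0.0589).

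FGFR3 and FGFR4 separated all 3 types. FGFR3 had 82.8, 64 and 83.1 FPKM in pXEN, 9.13 and 10.4 in nESC and 22.2 and 19.7 in primed ESC lines, and FGFR4 had 31.8, 38.5 and 33.8 FPKM in pXEN, 0.321 and 0.384 in nESC and 13.3 and 15.2 in primed ESC lines. For FGFR4 the log2 fold change was 6.61 (SE 0.20, adjusted p = 4.62e-07) in pXEN cells against nESCs, 1.29 (SE 0.13, adjusted p = 0.000169) against primed ESCs and 5.31 (SE 0.20, adjusted p = 4.87e-06) in primed ESCs against nESCs. The corresponding values of FGFR3 were 2.97, 1.88 and 1.09 (adjusted p = 6.18e-06, 6.26e-05 and 0.00266). In the nESC lines FGFR4 rested on 13 and 15 counts. Among the ligands, 15 of 18 FGF genes listed were found and 6 were tested. In pXEN cells 2 were higher and 3 lower than in nESCs (beside 28.3% and 26.2% of all genes), and 2 were higher and 4 lower than in primed ESCs (beside 23.9% and 24.4%). FGF19, which signals through FGFR4 with a Klotho partner, had 97.7 and 131 FPKM in the primed ESC lines and no count in any other library, so that it was at least 601-fold higher than in nESCs (adjusted p = 0.000153) and at least 819-fold higher than in pXEN cells (adjusted p = 4.09e-05, both against a floor of 3 counts over the group). FGF2, an FGF of many stem cell media, had 3.84, 8.06 and 7.5 FPKM in the pXEN lines, below the 21.8 and 17 of the nESC lines and the 17.1 and 15.5 of primed ESC lines. It was called lower at −1.58 (adjusted p = 0.00815), a call lost without nESC line 1 (0.0577), and at −1.32 (adjusted p = 0.0214), lost without either primed ESC line (0.101 and 0.0746). FGF9 and FGF18, also lower in pXEN cells, stayed at or below 2.08 FPKM in every line. The log2 fold change of FGF9 against nESCs, −2.51, became −1.91 without nESC line 1 and −3.17 without pXEN line 3. FGF18 lies on chromosome 16, where the median over 205 tested genes averaging 50 counts or more was −0.73 against nESCs and −0.03 against primed ESCs. The higher ones were FGF17, with 4.15, 2.9 and 7.3 FPKM in pXEN, 0 and 0 in nESC and 1.8 and 1.24 in primed ESC lines, and FGF21, with 4, 3.32 and 5.78 FPKM in pXEN, 0.21 and 0 in nESC and 0.201 and 0.377 in primed ESC lines. FGF17 was at least 24.9-fold higher than in nESCs (adjusted p = 0.000843), and its call against primed ESCs, 1.65 (adjusted p = 0.048), was lost in 6 of the 7 fits without 1 line (0.0513 to 0.243). The ratio of FGF21 to nESCs was 40.7-fold (95% exact binomial interval 11 to 340), and its log2 fold change against primed ESCs was 3.85 (SE 0.71, adjusted p = 0.00297). Of 5 FGF co-receptor genes tested, 2 were higher and 1 lower in pXEN cells than in nESCs (beside 28.3% and 26.2% of all genes). Against primed ESCs, 2 were higher and 2 lower (beside 23.9% and 24.4%). FLRT2 and FLRT3, membrane proteins that associate with FGF receptors, had 125, 155 and 106 and 124, 204 and 129 FPKM in the pXEN lines, above every ESC line. FLRT2 rose by 6.13 (adjusted p = 1.07e-05) and 5.03 (adjusted p = 2.98e-05) on the log2 scale against nESCs and primed ESCs (the first 7.06 without nESC line 2), and FLRT3 by 5.83 (adjusted p = 9.79e-06) and 2.91 (adjusted p = 0.000191). KL (Klotho) was lower, with 0.111, 0.591 and 0.0598 FPKM in the pXEN lines against 3.06 to 3.49 over all ESC lines, at −3.59 (adjusted p = 0.00221) and −3.67 (adjusted p = 0.00239), or −5.19 and −5.27 without pXEN line 2. KLB, the other Klotho gene listed, had 2.61, 4.49 and 2.63 FPKM in pXEN, 5.29 and 3.71 in nESC and 1.73 and 2.76 in primed ESC lines. It was called in no comparison (adjusted p = 0.264, 0.237 and 0.0741). FLRT1, lower than in primed ESCs, stayed below 1 FPKM.

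PDGFRA, KIT and KDR are neighbors on chromosome 8 in the Sscrofa10.2 coordinates of the tables, at chr8:43008336-43046215, chr8:43550236-43602062 and chr8:43919343-43966974. PDGFRA and KIT were called in the same direction in all 3 comparisons, and KDR was called in none. PDGFRA, the receptor of PDGF-AA, had 22.3, 13.9 and 24.7 FPKM in pXEN, 0.0257 and 0 in nESC and 0.542 and 0.392 in primed ESC lines. A single count in the nESC lines stood against 2096 in the pXEN lines, a ratio of 1538-fold (95% exact binomial interval 276 to 60763) (adjusted p = 5.07e-06). Against primed ESCs the log2 fold change was 5.44 (SE 0.36, adjusted p = 1.94e-05). In primed ESCs, with 39 counts, the ratio to nESCs was 35.3-fold (95% exact binomial interval 5.97 to 1428) (adjusted p = 0.0048). That call was lost with limma on log2(FPKM + 1), which gave 0.53 (adjusted p = 0.19). KIT, the receptor of stem cell factor, had 15.1, 19.4 and 16.4 FPKM in pXEN, 0.0763 and 0.257 in nESC and 8.62 and 7.11 in primed ESC lines, with log2 fold changes of 6.65 (SE 0.36, adjusted p = 4.55e-06) and 1.12 (SE 0.23, adjusted p = 0.0052) in pXEN cells and 5.53 (SE 0.37, adjusted p = 4.54e-05) in primed ESCs against nESCs. The nESC lines held 4 and 13 KIT counts, so that the first value was 6.01 without nESC line 1 and 7.75 without nESC line 2, the third 4.90 without nESC line 1 and 6.63 without nESC line 2, and the second call was lost without primed ESC line 2 (0.0656). KDR, a VEGF receptor, stayed between 0.101 and 0.698 FPKM in all lines and was called in no comparison (adjusted p = 0.29, 0.274 and 0.971).

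PDGFRB, the receptor of PDGF-BB, was low everywhere and highest in primed ESCs, at 1.39 and 1.73 FPKM against 0.0324, 0.333 and 0.058 in the pXEN lines and 0.0789 and 0.136 in the nESC lines. It was called in primed ESCs against both types, with log2 fold changes of 3.80 (SE 0.89, adjusted p = 0.0136) against nESCs and, in pXEN cells against primed ESCs, −3.39 (SE 0.74, adjusted p = 0.00638). Of its 15 pXEN counts, 12 were in line 2, the library with the high fibroblast gene sum, and the part of the fibroblast genes in this result was not tested. The second value was −4.98 without pXEN line 2, its call was lost without primed ESC line 2 (0.0508), and the first call was lost without any of the 4 ESC lines (0.0592 to 0.105). FLT3, a cytokine receptor of blood progenitors, had 40 and 36 counts in the primed ESC lines and none in the nESC lines, at least 22.9-fold more (adjusted p = 0.00433), and was also called against pXEN cells, which held 10, 2 and 7 counts, at −2.26 (SE 0.65, adjusted p = 0.0257) on the log2 scale for pXEN cells against primed ESCs. It stayed below 1 FPKM in every line. CSF1R, the macrophage receptor, had 5 counts in all and was not tested. Among the ligands, PDGFA had 0.729, 3.47 and 0.871 FPKM in pXEN, 0 and 0 in nESC and 14.1 and 15.9 in primed ESC lines, and PDGFB had 18.3, 10.1 and 15.3 FPKM in pXEN, 0.342 and 0.177 in nESC and 1.81 and 0.308 in primed ESC lines. PDGFA was at least 148-fold higher in primed ESCs than in nESCs (adjusted p = 0.00165), and in pXEN cells against primed ESCs its log2 fold change was −3.12 (SE 0.62, adjusted p = 0.00563), or −4.21 without pXEN line 2. PDGFB was higher in pXEN cells than in primed ESCs by 3.78 (SE 0.67, adjusted p = 0.00231), a value that ranged from 2.99 without primed ESC line 2 to 5.47 without primed ESC line 1. PDGFD was also higher in pXEN cells, by 1.64 (adjusted p = 0.00602) and 2.47 (adjusted p = 0.0013) against nESCs and primed ESCs.

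The receptors named for endothelium, FLT1 (VEGF receptor 1) and TEK (the angiopoietin receptor), were highest in primed ESCs. TEK had 15.3 and 18.3 FPKM in the primed ESC lines, 0.137, 0.039 and 0.102 in the pXEN lines and no count in the nESC lines. It was at least 590-fold higher in primed ESCs than in nESCs (adjusted p = 2.09e-05), and its log2 fold change in pXEN cells against primed ESCs was −7.49 (SE 0.31, adjusted p = 6.51e-06). In pXEN cells against nESCs TEK was called on 13 counts against none (adjusted p = 0.00854), a call lost with limma on log2(FPKM + 0.1) (0.0554). FLT1 had 0.581, 3.98 and 1.61 FPKM in pXEN, 0 and 0.098 in nESC and 9.53 and 9.56 in primed ESC lines, with 7.53 (SE 1.12, adjusted p = 0.00195) in primed ESCs against nESCs and −2.19 (SE 0.64, adjusted p = 0.0228) in pXEN cells against primed ESCs. The pXEN lines differed 6.85-fold among themselves for FLT1. The second value was −3.09 without pXEN line 2, and its call was lost without pXEN line 3 or either primed ESC line (0.0667, 0.096 and 0.1). FLT1 was also higher in pXEN cells than in nESCs, which held 4 counts in all, by 5.34 (SE 1.13, adjusted p = 0.00472), or 4.44 without pXEN line 2, 4.35 without nESC line 1 and 9.42 without nESC line 2. The primed ESC value against nESCs was 6.54 without nESC line 1 and 11.61 without nESC line 2. Both values without nESC line 2 compare with a line at 0 counts and depend on the prior count of the fit. FLT4, the lymphatic VEGF receptor, had at most 16 counts in any library and was not tested. TIE1, the partner of TEK, was called in no comparison (adjusted p = 0.686, 0.229 and 0.509) and stayed between 0.546 and 1.56 FPKM. Of 7 endothelial marker genes found, EMCN had no count in any library, ERG had 1, and the list summed to 238 and 206 counts in the primed ESC lines, 156 to 212 in the pXEN lines and 23 and 29 in the nESC lines. EGFL7 alone gave 157 and 160 of these counts in the primed ESC lines. The 5 trophoblast marker genes found summed to 44.6 and 41 FPKM in the primed ESC lines and 0.661 to 1.81 in the others, of which TFAP2C gave 40.4 and 37, and among them HAND1 had no count in any library. The part of other cell types in the TEK and FLT1 results was not tested beyond these values.

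Of 6 VEGF ligand and co-receptor genes tested, 5 were higher and 0 lower in pXEN cells than in nESCs (beside 28.3% and 26.2% of all genes), and 4 were higher and 1 lower than in primed ESCs (beside 23.9% and 24.4%). VEGFA had 97.5, 66.2 and 116 FPKM in pXEN, 2.9 and 3.65 in nESC and 18.4 and 19.3 in primed ESC lines, a log2 fold change in pXEN cells of 4.82 (SE 0.28, adjusted p = 6.33e-06) against nESCs and 2.31 (SE 0.24, adjusted p = 0.000153) against primed ESCs. VEGFC was higher in pXEN cells by 3.65 (adjusted p = 0.000357) and 2.88 (adjusted p = 0.00107), and ANGPT2, an angiopoietin that can block TEK, by 5.24 (adjusted p = 9.44e-06) and 6.50 (adjusted p = 9.57e-06), the first 6.04 without nESC line 2. The neuropilins, co-receptors of VEGF and semaphorins, diverged. NRP1 had 20.1, 24.6 and 19.6 FPKM in pXEN, 5.02 and 2.39 in nESC and 0.636 and 1.22 in primed ESC lines, and NRP2 had 8.73, 3.59 and 6.01 FPKM in pXEN, 0.572 and 0.62 in nESC and 29.6 and 31.3 in primed ESC lines. In pXEN cells against primed ESCs, NRP1 was higher by 4.53 (SE 0.40, adjusted p = 7.79e-05), while NRP2 had −2.31 (SE 0.30, adjusted p = 0.000458). NRP1 was also higher in pXEN cells than in nESCs by 2.53 (adjusted p = 0.000575), or 3.15 without nESC line 1.

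**Figure D3:**
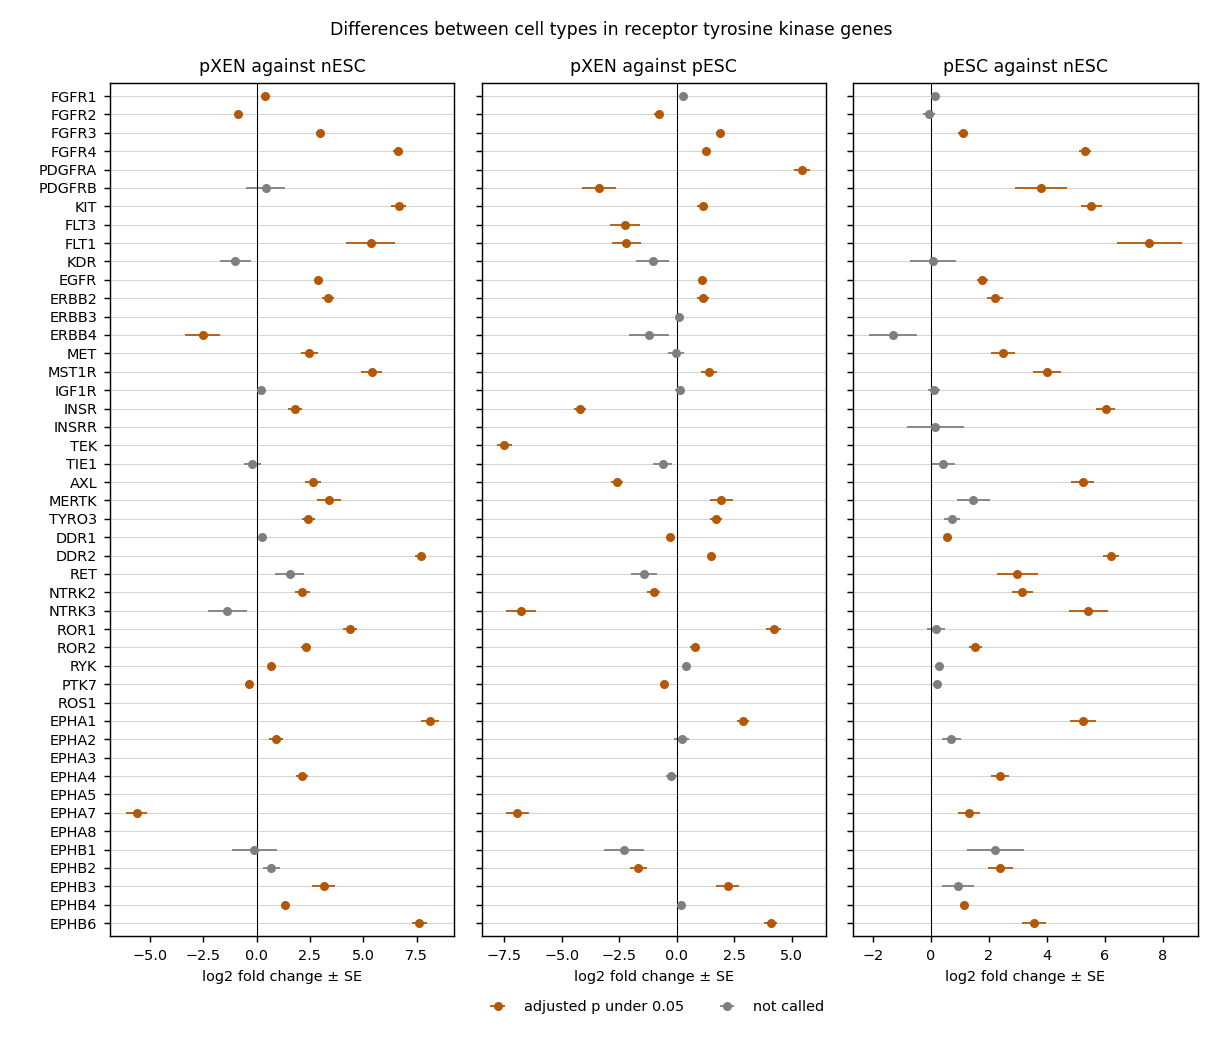
Log2 fold changes (horizontal axis) with standard errors for pXEN cells against nESCs, pXEN cells against primed ESCs and primed ESCs against nESCs. Orange points passed an adjusted p of 0.05 and gray points did not. Of 46 genes tested, 9, 5 and 8 are left out of the respective panels because a group held 3 counts or fewer.

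The ERBB family, receptors of EGF and the neuregulins, was low in nESCs for 3 of its 4 members. EGFR had 21.1, 16.7 and 20.6 FPKM in pXEN, 2.29 and 2.95 in nESC and 9.46 and 8.64 in primed ESC lines, and ERBB2, the co-receptor without a ligand of its own, had 77.5, 60.5 and 70.5 FPKM in pXEN, 4.69 and 9.06 in nESC and 31.5 and 32.2 in primed ESC lines. Both genes ran in the same order, with pXEN lines above primed ESC lines and primed ESC lines above nESC lines, and with no overlap. The log2 fold changes of EGFR were 2.89 (SE 0.19, adjusted p = 1.13e-05), 1.11 (SE 0.17, adjusted p = 0.00107) and, in primed ESCs against nESCs, 1.77 (SE 0.20, adjusted p = 0.000476). Those of ERBB2 were 3.33 (SE 0.28, adjusted p = 3.57e-05), 1.13 (SE 0.25, adjusted p = 0.00611) and 2.20 (SE 0.28, adjusted p = 0.000874), the second not called without primed ESC line 1 (0.0538). ERBB3, the neuregulin receptor that signals through ERBB2, had 15.5, 17 and 16.6 FPKM in the pXEN lines and 14.7 and 16.1 in primed ESC lines, which overlapped, and 2 counts in the nESC lines. The ratio to nESCs was 749-fold (95% exact binomial interval 207 to 6186) in pXEN cells and 698-fold (95% exact binomial interval 193 to 5771) in primed ESCs (adjusted p = 1.22e-06 and 4.98e-06). The listed span of ERBB3 overlaps 7 other genes, among them ESYT1, ANKRD52 and NABP2, so its level is uncertain. The ERBB4 row used ran the other way, at 0.67 and 1.23 FPKM in the nESC lines, 0, 0.208 and 0.261 in the pXEN lines and 0.303 and 0.461 in primed ESC lines, and it was called lower in pXEN cells than in nESCs, at −2.53 (SE 0.82, adjusted p = 0.0298) on the log2 scale. A further row described as ERBB4, with 131 counts against 79, had 0.0954, 0.695 and 0.385 FPKM in the pXEN lines, 0.736 and 0.845 in the nESC lines and 1.08 and 1.19 in primed ESC lines and was not called, at −0.99 (adjusted p = 0.233), so the direction of ERBB4 is uncertain. Of 6 ERBB ligand genes tested, 1 was higher and 1 lower in pXEN cells than in nESCs (beside 28.3% and 26.2% of all genes), and 2 were higher and 0 lower than in primed ESCs (beside 23.9% and 24.4%). NRG4, a neuregulin, had 50.9, 39.4 and 51.8 FPKM in pXEN, 21.9 and 20.2 in nESC and 20.4 and 13.6 in primed ESC lines, higher in pXEN cells by 1.16 (SE 0.24, adjusted p = 0.0045) and 1.49 (SE 0.25, adjusted p = 0.00175). HBEGF was higher than in primed ESCs by 1.64 (adjusted p = 0.0113), a call lost without primed ESC line 1 (0.0893). The gene lower than in nESCs was EGF itself, at 3.39 and 1.47 FPKM in the nESC lines and 0.0696, 0.179 and 0 in the pXEN lines, a log2 fold change of −4.74 (SE 0.85, adjusted p = 0.00206), or −5.93 without pXEN line 2 and −4.03 without nESC line 1.

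MET, the receptor of hepatocyte growth factor, and MST1R, its closest relative, were both low in nESCs. MET had 4.81, 3.17 and 7.03 FPKM in pXEN, 0.651 and 1.15 in nESC and 5.26 and 4.93 in primed ESC lines, with 2.46 (SE 0.40, adjusted p = 0.0013) in pXEN cells against nESCs and 2.48 (SE 0.42, adjusted p = 0.00355) in primed ESCs against nESCs. The pXEN lines spanned the primed ESC lines for MET, and their difference was −0.02 (SE 0.35, adjusted p = 0.969). MST1R had 1.5, 2.33 and 1.97 FPKM in pXEN, 0.0343 and 0.0534 in nESC and 0.61 and 0.864 in primed ESC lines, higher in pXEN cells than in primed ESCs by 1.40 (SE 0.33, adjusted p = 0.00973), a call lost without primed ESC line 1 (0.0849). MST1R lies on chromosome 13, where the median over the 811 tested genes averaging 50 counts or more over the libraries was 0.40 in that comparison. Within the insulin receptor family, IGF1R was called in no comparison and INSR in all 3. IGF1R, the main growth receptor of this family, had 17, 11.4 and 17.7 FPKM in pXEN, 12 and 14.3 in nESC and 14.5 and 14 in primed ESC lines (adjusted p = 0.362, 0.641 and 0.752). Both lowest and highest values were pXEN lines, and without pXEN line 2 it was called higher in pXEN cells, by 0.39 against nESCs and 0.29 against primed ESCs (adjusted p = 0.00961 and 0.0379). INSR, the insulin receptor, had 0.231, 0.359 and 0.298 FPKM in pXEN, 0.106 and 0.0609 in nESC and 5.55 and 5.61 in primed ESC lines. The log2 fold change of INSR was 6.02 (SE 0.33, adjusted p = 2.07e-05) in primed ESCs against nESCs and −4.21 (SE 0.25, adjusted p = 1.04e-05) in pXEN cells against primed ESCs. Against nESCs, with 9 and 5 counts, it was 1.81 (SE 0.34, adjusted p = 0.00268) in pXEN cells, a call lost with limma on log2(FPKM + 1) (0.126). INSRR, an orphan receptor, had at most 0.337 FPKM in any line and was not called.

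Among the TAM receptors, which bind PROS1 and GAS6 on dying cells, each gene had its own pattern. TYRO3 had 64.9, 33.3 and 62.2 FPKM in pXEN, 10.8 and 8.97 in nESC and 16 and 16.9 in primed ESC lines, and AXL had 2.22, 3.35 and 2.04 FPKM in pXEN, 0.318 and 0.495 in nESC and 14.3 and 16.8 in primed ESC lines. TYRO3 was higher in pXEN cells by 2.43 (SE 0.29, adjusted p = 0.000233) against nESCs and by 1.70 (SE 0.27, adjusted p = 0.00147) against primed ESCs, and every pXEN line lay above every ESC line. AXL was highest in primed ESCs, with 5.23 (SE 0.39, adjusted p = 7.96e-05) against nESCs and −2.60 (SE 0.28, adjusted p = 0.000199) in pXEN cells against primed ESCs. MERTK, which clears apoptotic cells, was low, at 1.79, 1.56 and 1.6 FPKM in pXEN, 0.239 and 0.0675 in nESC and 0.313 and 0.547 in primed ESC lines. It was higher in pXEN cells than in nESCs by 3.39 (SE 0.55, adjusted p = 0.00125), or 4.54 without nESC line 1 and 2.77 without nESC line 2. Its difference from primed ESCs, 1.94 (SE 0.49, adjusted p = 0.012), was not called without primed ESC line 1 (0.096). PROS1 was 2.50 and 2.30 higher on the log2 scale in pXEN cells than in nESCs and primed ESCs (adjusted p = 2.08e-05 and 4.75e-05), at 55.3, 43.9 and 49.1 FPKM in the pXEN lines. PROS1 lies on chromosome 13, where the median over the same 811 genes was 0.50 and 0.40 in these comparisons. GAS6, the other ligand, stayed between 0.127 and 1.95 FPKM and was called in no comparison.

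The discoidin domain receptors, which bind collagen, differed in how far they varied. DDR1 had 81, 82.3 and 83.3 FPKM in pXEN, 62.5 and 75.1 in nESC and 104 and 98.8 in primed ESC lines and was called higher in primed ESCs than in nESCs, by 0.55 (SE 0.12, adjusted p = 0.00976). It differed from primed ESCs in pXEN cells by −0.30 (SE 0.11, adjusted p = 0.0496), a call lost without pXEN line 1 or 3 or either primed ESC line (0.0946 to 0.232) and with a replicate block (0.116), and the call against nESCs was lost without nESC line 1 or primed ESC line 1 (0.074 and 0.0742). DDR2 had 45.7, 33.6 and 43 FPKM in pXEN, 0.146 and 0.243 in nESC and 13.7 and 15.6 in primed ESC lines. Its log2 fold changes were 7.68 (SE 0.27, adjusted p = 8.45e-07) and 1.48 (SE 0.17, adjusted p = 0.000257) in pXEN cells and 6.20 (SE 0.28, adjusted p = 8.08e-06) in primed ESCs against nESCs, and the 3 types did not overlap.

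The receptors of Wnt ligands behaved as separate genes. ROR1 had 49.3, 29.7 and 57.4 FPKM in pXEN, 2.54 and 1.81 in nESC and 2.3 and 2.61 in primed ESC lines, and ROR2, which binds WNT5A, had 65.2, 43 and 72.4 FPKM in pXEN, 12.7 and 11.5 in nESC and 34.4 and 36.3 in primed ESC lines. ROR1 was higher in pXEN cells by 4.37 (SE 0.32, adjusted p = 1.92e-05) and 4.21 (SE 0.32, adjusted p = 3.49e-05), with the ESC types overlapping each other. ROR2 stepped up from nESCs to primed ESCs to pXEN cells, with 2.31 (SE 0.22, adjusted p = 7.13e-05) and 0.78 (SE 0.20, adjusted p = 0.0142) in pXEN cells, the second not called without either primed ESC line (0.0975 and 0.0755). RYK, a Wnt co-receptor without kinase activity, had 46.2, 36.1 and 49.6 FPKM in pXEN, 28.1 and 26.6 in nESC and 34.6 and 32.8 in primed ESC lines and was called higher in pXEN cells than in nESCs, by 0.68 (SE 0.14, adjusted p = 0.00452). RYK lies on chromosome 13, where the median over the same 811 genes was 0.50 in that comparison, and its difference from primed ESCs, 0.39 (adjusted p = 0.0506), was called without pXEN line 2 (0.00117). PTK7, a pseudokinase of planar cell polarity, was lower in pXEN cells, at 59.6, 68.1 and 60.2 FPKM in pXEN, 88.6 and 72.4 in nESC and 90.6 and 96.3 in primed ESC lines. Its log2 fold changes were −0.37 (SE 0.12, adjusted p = 0.0321) against nESCs and −0.57 (SE 0.12, adjusted p = 0.00539) against primed ESCs. The first call was lost in 5 of the 7 fits without 1 line (0.0599 to 0.243) and with a replicate block (0.115), and the second without primed ESC line 2 (0.0519). WNT5A, the ligand listed for this group, was lower in nESCs than in both other types, at 0.462 and 0.676 FPKM against 2.13, 2.85 and 2.76 in the pXEN lines and 2.45 and 2.14 in primed ESC lines.

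The rows used for the neurotrophin and GDNF receptors had their highest mean levels in primed ESCs. The 5 neural marker genes found had a sum of 540 and 525 FPKM in the primed ESC lines, 274 and 414 in the nESC lines and 29.2 to 54.1 in the pXEN lines. These markers did not run alike, since STMN2 was highest in the primed ESC lines (416 and 425 FPKM) and TUBB3 in the nESC lines (192 and 249). NES alone of the 5 had its highest value in a pXEN line. It had 27.6, 45.6 and 34.9 FPKM in pXEN, 5.74 and 30.4 in nESC and 16.1 and 16.5 in primed ESC lines. The part of these markers in the results below was not tested. NTRK2, the BDNF receptor, had 6.21, 8.22 and 6.94 FPKM in pXEN, 1.05 and 2.18 in nESC and 14.1 and 14.7 in primed ESC lines, and NTRK3, the NT-3 receptor, had 0.0451, 0 and 0.121 FPKM in pXEN, 0.22 and 0.076 in nESC and 7.14 and 6.13 in primed ESC lines. NTRK3 was higher in primed ESCs than in nESCs by 5.42 (SE 0.67, adjusted p = 0.000796), or 6.34 without nESC line 1, and in pXEN cells against primed ESCs it had −6.79 (SE 0.65, adjusted p = 0.000108), or −8.01 without pXEN line 3. NTRK2 was higher in primed ESCs than in nESCs by 3.14 (SE 0.36, adjusted p = 0.000538) and in pXEN cells than in nESCs by 2.14 (SE 0.34, adjusted p = 0.00104), values that became 3.76 and 2.75 without nESC line 2. Its difference between pXEN cells and primed ESCs, −1.01 (SE 0.28, adjusted p = 0.0196), was lost without any of pXEN line 1, pXEN line 3, primed ESC line 1 and primed ESC line 2 (0.0537 to 0.109). RET, the GDNF family receptor, was low in all types, at 0.421, 0.18 and 0.806 FPKM in pXEN, 0.218 and 0.0968 in nESC and 1.27 and 1.24 in primed ESC lines, and was called higher in primed ESCs than in nESCs, by 2.97 (SE 0.70, adjusted p = 0.0148), a call lost without nESC line 2 or either primed ESC line (0.0616 to 0.0922) and a value of 3.65 without nESC line 1. In pXEN cells it was called higher than in nESCs without pXEN line 2 (0.00956) and lower than in primed ESCs without pXEN line 3 (0.021). Its co-receptors went separate ways. GFRA1, which binds GDNF, had 0.206, 0.706 and 0.831 FPKM in pXEN, 29.8 and 37 in nESC and 5.31 and 3.09 in primed ESC lines, and GFRA2, which binds neurturin, had 13.7, 9.24 and 22 FPKM in the pXEN lines, 1.7 and 1.89 in primed ESC lines and no count in the nESC lines. GFRA1 was lower in pXEN cells than in nESCs, at −5.80 (SE 0.42, adjusted p = 1.81e-05) on the log2 scale, while GFRA2 was at least 265-fold higher (adjusted p = 5.31e-05). Neurturin (NRTN) itself had 5.07, 4.96 and 4.33 FPKM in pXEN, 0.196 and 0.204 in nESC and 10.9 and 13.2 in primed ESC lines. It was lower in pXEN cells than in primed ESCs at −1.32 (SE 0.33, adjusted p = 0.0117) on the log2 scale, a call lost without either primed ESC line (0.0513 and 0.111), and its ratio to nESCs was 60.1-fold (95% exact binomial interval 16.3 to 502) there and 23.8-fold (95% exact binomial interval 6.34 to 201) in pXEN cells. NTF4, a ligand of NTRK2, was highest in pXEN cells, by 4.42 (adjusted p = 0.000237) and 3.44 (adjusted p = 0.000679).

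The Eph receptors, which read ephrins on neighboring cells, were the largest family, with 12 of 12 genes found tested. Against nESCs, pXEN cells had 6 of them higher and 2 lower (beside 28.3% and 26.2% of all genes), and primed ESCs had 8 higher and 1 lower (beside 19% and 13.3%). Against primed ESCs, 3 were higher in pXEN cells and 4 lower, which is near the 23.9% and 24.4% of all genes. EPHB6, a kinase-dead member, and EPHA1 were the members with the highest level in pXEN cells. EPHB6 had 45.8, 52.1 and 39.9 FPKM in pXEN, 0.0953 and 0.363 in nESC and 2.5 and 2.94 in primed ESC lines, and EPHA1 had 45.8, 28.5 and 43.7 FPKM in pXEN, 0.218 and 0.0566 in nESC and 5.53 and 5.3 in primed ESC lines. The log2 fold changes of EPHB6 were 7.63 (SE 0.36, adjusted p = 2.65e-06) and 4.08 (SE 0.27, adjusted p = 1.77e-05) in pXEN cells, and those of EPHA1 were 8.11 (SE 0.41, adjusted p = 3.6e-06) and 2.87 (SE 0.27, adjusted p = 0.0001), with pXEN lines above primed ESC lines and primed ESC lines above nESC lines in both. The nESC lines held few counts of either (3 and 11, 8 and 2), and without nESC line 1 or 2 the first values became 6.95 or 8.85 for EPHB6 and 9.33 or 7.47 for EPHA1. In primed ESCs against nESCs EPHB6 had 3.55 (2.88 to 4.77 without an nESC line) and EPHA1 5.24 (4.60 to 6.48).

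EPHB3 was also higher in pXEN cells, at 18.5, 6.21 and 21.7 FPKM in pXEN, 1.41 and 2.08 in nESC and 3.71 and 3.02 in primed ESC lines, by 3.14 (SE 0.53, adjusted p = 0.00153) and 2.21 (SE 0.49, adjusted p = 0.0072), the second not called without primed ESC line 2 (0.0661). EPHB3 lies on chromosome 13, and its level in pXEN line 2 was 3.5-fold below the highest pXEN line. EPHA4 and EPHB4 were lower in nESCs than in both other types. EPHA4 had 18.1, 14.8 and 18.4 FPKM in pXEN, 2.51 and 5.25 in nESC and 20.2 and 20.5 in primed ESC lines, with 2.13 (SE 0.29, adjusted p = 0.000472) in pXEN cells and 2.38 (SE 0.30, adjusted p = 0.000934) in primed ESCs against nESCs (2.76 and 3.01 without nESC line 2). EPHB4 had 22.4, 23.4 and 23.7 FPKM in pXEN, 8.39 and 9.9 in nESC and 20.3 and 20.2 in primed ESC lines, with 1.33 (SE 0.11, adjusted p = 3.62e-05) and 1.13 (SE 0.12, adjusted p = 0.000362). Between pXEN cells and primed ESCs the estimates were −0.24 (SE 0.25, adjusted p = 0.463) for EPHA4 and 0.20 (SE 0.11, adjusted p = 0.15) for EPHB4, neither called. EPHA2, a receptor of many epithelia, had 23.9, 13.3 and 27.1 FPKM in pXEN, 8.32 and 14.2 in nESC and 18 and 19 in primed ESC lines, and its call against nESCs, 0.92 (SE 0.32, adjusted p = 0.0411), was lost in 5 of the 7 fits without 1 line (0.0675 to 0.255), with upper-quartile scaling (0.0849) and with a replicate block (0.137).

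Among the remaining Eph receptors, 5 were higher in an ESC type than in pXEN cells. EPHB2 had 6.87, 18.7 and 12.7 FPKM in pXEN, 6.21 and 9.42 in nESC and 46.6 and 35.4 in primed ESC lines, higher in primed ESCs than in nESCs by 2.38 (SE 0.43, adjusted p = 0.00458) and, in pXEN cells against primed ESCs, −1.67 (SE 0.37, adjusted p = 0.00645), not called without primed ESC line 1 (0.0524). EPHA7 had 0.0313, 0.0805 and 0.0281 FPKM in pXEN, 1.68 and 3.3 in nESC and 7.09 and 5.38 in primed ESC lines, and only 5 counts in the pXEN lines. It was lower in pXEN cells, at −5.62 (SE 0.51, adjusted p = 5.43e-05) and −6.93 (SE 0.49, adjusted p = 2.75e-05) on the log2 scale, or −6.25 and −7.56 without pXEN line 2, and its difference between the ESC types, 1.31 (adjusted p = 0.0314), was not called without nESC line 1 or either primed ESC line (0.0847 to 0.194). EPHA3 had 78 and 108 counts in the primed ESC lines, 2 in the nESC lines and none in the pXEN lines, at least 76.4-fold more than in pXEN cells (adjusted p = 0.000706) and 84.1-fold (95% exact binomial interval 22.9 to 699) more than in nESCs. EPHA5 was the reverse, with 68 and 38 counts in the nESC lines and none in any pXEN or primed ESC line, at least 48.2-fold and 39.1-fold more (adjusted p = 0.00142 and 0.00486). It was the 1 member called lower in primed ESCs than in nESCs. EPHA8 had 38 and 49 counts in the primed ESC lines and none elsewhere, and the row used for EPHB1 stayed below 1 FPKM and was not called. A further EPHB1 row, with 92 counts against 53 in the row used, was called lower in pXEN cells than in primed ESCs, at −2.45 (adjusted p = 0.0491), and in no other comparison.

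**Figure D4:**
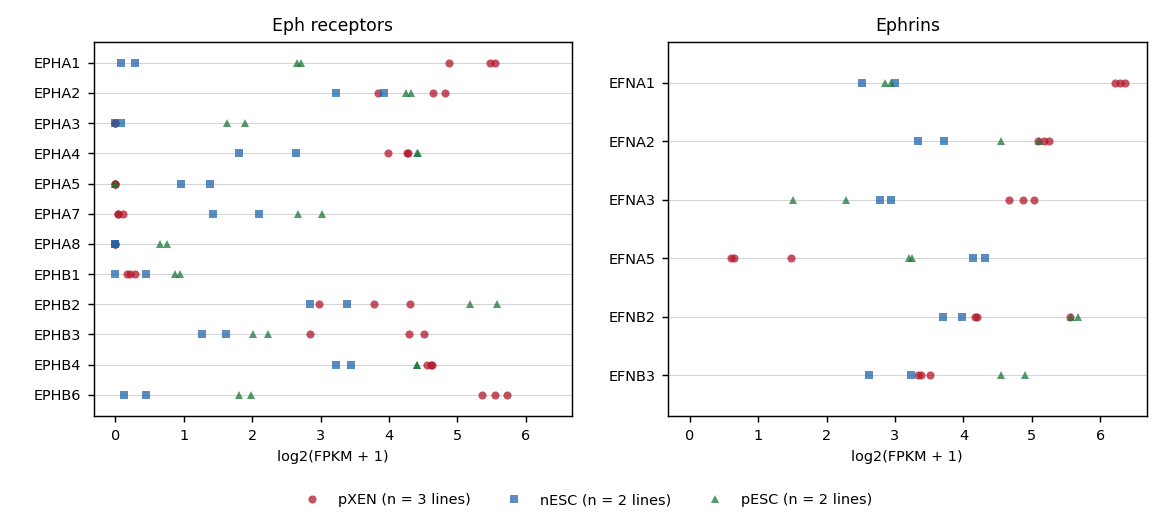
Levels of the 12 Eph receptor genes (left) and the 6 ephrin genes tested (right) as log2(FPKM + 1) on the horizontal axis, with 1 point for each line. EFNA1 and EPHB6 are highest in the pXEN lines, EFNA5 and EPHA7 are lowest there, and EPHB2 is highest in the primed ESC lines.

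Of 8 ephrin genes listed, 6 were found and tested. In pXEN cells 3 were higher and 1 lower than in nESCs, where 54.5% of all genes were called, and 2 were higher and 2 lower than in primed ESCs, where 48.3% were. EFNA1 had 73.6, 81.1 and 77.4 FPKM in pXEN, 7 and 4.74 in nESC and 6.24 and 6.67 in primed ESC lines, higher in pXEN cells by 3.71 (SE 0.18, adjusted p = 3.28e-06) and 3.59 (SE 0.18, adjusted p = 6.17e-06). EFNA3 was higher by 2.16 (adjusted p = 0.000666) and 3.31 (adjusted p = 0.000152), the second 3.91 without primed ESC line 1. EFNA5 went down, at 0.572, 1.8 and 0.513 FPKM in pXEN, 16.6 and 19 in nESC and 8.19 and 8.5 in primed ESC lines, with −4.16 (SE 0.48, adjusted p = 0.000216) and −3.06 (SE 0.49, adjusted p = 0.00141), which became −4.99 and −3.89 without pXEN line 2. EFNA2 was lower in nESCs than in both other types, at 9.1 and 12.1 FPKM against 33.2, 37 and 35.1 in the pXEN lines and 33.4 and 22.4 in primed ESC lines. EFNB2 and EFNB3, the ligands of the B class, were higher in primed ESCs than in nESCs, by 1.84 (adjusted p = 0.0189) and 1.91 (adjusted p = 0.000979), and the call of EFNB2 was lost without any of the 4 ESC lines (0.0701 to 0.123).

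ALK had 27 counts in all and MUSK, the agrin receptor of the neuromuscular junction, had 15, and neither was tested. ROS1, an orphan kinase of epithelia, had 14, 38 and 39 counts in the pXEN lines and none in the ESC lines, at least 22.3-fold more than in nESCs and 24.6-fold more than in primed ESCs (adjusted p = 0.00238 and 0.00263), but had at most 0.512 FPKM. Of 4 ligand genes tested for this group, 3 were higher and 1 lower in pXEN cells than in nESCs (beside 28.3% and 26.2% of all genes), and 2 were higher and 2 lower than in primed ESCs (beside 23.9% and 24.4%). MDK, a heparin-binding growth factor that binds ALK and other receptors, had 1895, 2316 and 1900 FPKM in pXEN, 238 and 235 in nESC and 879 and 970 in primed ESC lines, and PTN, its relative, had 11.6, 10.2 and 15.1 FPKM in pXEN, 0.612 and 2.37 in nESC and 85.1 and 78.3 in primed ESC lines. MDK was higher in pXEN cells by 3.10 (SE 0.14, adjusted p = 2.24e-06) and 1.15 (SE 0.13, adjusted p = 0.000219), whereas PTN was lower than in primed ESCs, with −2.72 (SE 0.32, adjusted p = 0.000321). PTN was higher than in nESCs by 3.04 in pXEN cells (2.35 and 4.31 without nESC lines 1 and 2) and by 5.76 in primed ESCs (5.08 and 7.03). AGRN, a basement membrane protein, had 231, 203 and 211 FPKM in pXEN, 7.33 and 8.65 in nESC and 38.1 and 34.5 in primed ESC lines, higher in pXEN cells by 4.75 (SE 0.14, adjusted p = 4.58e-07) and 2.57 (SE 0.13, adjusted p = 5.49e-06). LRP4, the agrin co-receptor of MUSK, was lower in pXEN cells, at −1.89 (adjusted p = 6.65e-06) and −1.11 (adjusted p = 0.000144).

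Of 91 ligand and co-receptor symbols listed, VEGFD and FIGF being names of 1 gene, 73 genes were found and 52 tested, and in pXEN cells against nESCs 27 were called higher and 9 lower (beside 28.3% and 26.2% of all genes). The counts were 22 and 17 for pXEN cells against primed ESCs (beside 23.9% and 24.4%) and 17 and 6 for primed ESCs against nESCs (beside 19% and 13.3%). Of 28 adaptors and regulators, 24 were found and 23 tested, with 14, 11 and 5 higher and 4, 4 and 4 lower in the same comparisons and against the same shares of all genes. GRB7, an adaptor that docks on ERBB receptors and lies beside ERBB2 in mammalian genomes, had 27.6, 19.6 and 31.6 FPKM in pXEN, 0.0831 and 0 in nESC and 0.279 and 0 in primed ESC lines. Its ratio between pXEN cells and nESCs was 615-fold (95% exact binomial interval 170 to 5081), and against primed ESCs, with 7 counts in line 1 and none in line 2, its log2 fold change was 7.55 (SE 0.64, adjusted p = 6.26e-05), or 6.52 without primed ESC line 2. Without primed ESC line 1 no count was left in that group, and the call was kept (adjusted p = 0.000368). LRIG3 and LRIG1, transmembrane regulators of ERBB and other receptors, moved apart. LRIG3 was higher in pXEN cells by 4.26 (SE 0.40, adjusted p = 6.73e-05) and 3.48 (SE 0.38, adjusted p = 0.00021), at 129, 56.4 and 139 FPKM, and LRIG1, which restrains ERBB signaling, had −1.72 (SE 0.20, adjusted p = 0.000208) and −2.06 (SE 0.20, adjusted p = 0.000115). IRS4, an insulin receptor substrate, was higher in pXEN cells by 5.06 (adjusted p = 5.11e-05) and 3.27 (adjusted p = 0.000298), and PTPRJ, a receptor phosphatase, by 2.49 (adjusted p = 9.72e-05) and 0.91 (adjusted p = 0.0127), the last not called without either primed ESC line (0.0806 and 0.0809). GAB2, a docking protein, was higher by 2.37 (adjusted p = 0.00336) and 1.77 (adjusted p = 0.0123), the second lost without primed ESC line 1 (0.0998). CBLB, a ubiquitin ligase that removes receptors, was higher by 1.65 (adjusted p = 1.89e-05) and 2.08 (adjusted p = 1.18e-05), on chromosome 13, and PLCG2, a phospholipase, by 2.05 (adjusted p = 0.000216) against primed ESCs.

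Several receptor genes were split in the tables. For 20 of the 50 members, 28 further rows carried the description of the same protein under another identifier, and 11 of these rows held 100 counts or more. Apart from those of ERBB4 and EPHB1, these rows were not used above. The second row described as PDGFRA, at chr8:43067823-43081688 beside the first, had 24.3, 15.4 and 23.5 FPKM in the pXEN lines, 0 and 0.0242 in the nESC lines and 0.292 and 0.126 in primed ESC lines, and differed from primed ESCs by 6.66 (adjusted p = 1.18e-05) on the log2 scale. The second rows of FGFR2 and EGFR gave −1.23 (adjusted p = 0.00275) and 2.73 (adjusted p = 8.38e-05) in pXEN cells against nESCs, those of MET and EPHA4 2.71 (adjusted p = 0.000181) and 2.17 (adjusted p = 0.00123), and that of MERTK 2.26 (adjusted p = 0.00133). For ERBB3 the second row held no nESC count and 82, 84 and 134 counts in the pXEN lines. The second row of INSR gave 4.04 (adjusted p = 0.00239) in primed ESCs against nESCs but did not repeat the small difference between pXEN cells and nESCs, at −0.80 (adjusted p = 0.361). A second row of PDGFRB, with 428 counts against 151 in the first, was called in all 3 comparisons, at 1.58 (adjusted p = 0.0446), −1.91 (adjusted p = 0.0118) and 3.49 (adjusted p = 0.00375). The further rows of ERBB4, given above, and EPHB3 did not repeat the calls: that of EPHB3 held 203 of its 316 counts in pXEN line 1 and gave 3.40 (adjusted p = 0.0834) against nESCs and 1.99 (adjusted p = 0.243) against primed ESCs. NTRK2 had a pair of further rows with fewer counts, which in pXEN cells against primed ESCs went opposite ways, at 2.36 (adjusted p = 0.0401) on 65 counts and −2.39 (adjusted p = 0.0539) on 37, so that the first ran against the row used and the second, not called, had its sign. The second row of FGFR2 had 59.1 and 59.2 FPKM in the nESC lines, where the row used had 27.6 and 37. The levels of split genes, and their order among receptors, are those of the listed part.

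The pXEN lines were not equal to each other. Among 36 receptor genes averaging 10 counts or more in pXEN cells, the highest line exceeded the lowest by a median of 1.55-fold, against 1.37-fold for 15161 genes chosen the same way, and 9 genes (25%, against 18.7%) by more than 2-fold. Line 2 was the lowest of the 3 lines in 20 of the 36 genes (55.6%, against 38.7% of all genes) and the highest in 12 (33.3%, against 42.7%). The receptors that were lowest in line 2 included RET, EPHB3, KDR, EPHA2, TYRO3, MET, ROR1 and PDGFRA, and those highest in it included FLT1, EPHB2 and AXL. The 811 genes of chromosome 13 averaging 50 counts or more were a median 0.41 higher on the log2 scale in lines 1 and 3 than in line 2. EPHB3 and RYK on that chromosome followed this direction, with −1.70 and −0.41 in line 2 against the mean of lines 1 and 3, and MST1R did not, with 0.43. Without line 2, TYRO3, RYK, EPHA2 and EPHB3 were called higher in primed ESCs than in nESCs (adjusted p = 0.000906, 0.0274, 0.0264 and 0.00733), since the lines share 1 estimate of the spread. MERTK was so called without nESC line 1 (0.0412), and in pXEN cells DDR1 and EPHB2 were called above nESCs without nESC line 2 (0.0406) and pXEN line 1 (0.021). The part of the fibroblast genes in the differences between lines was not tested.

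**Figure D5:**
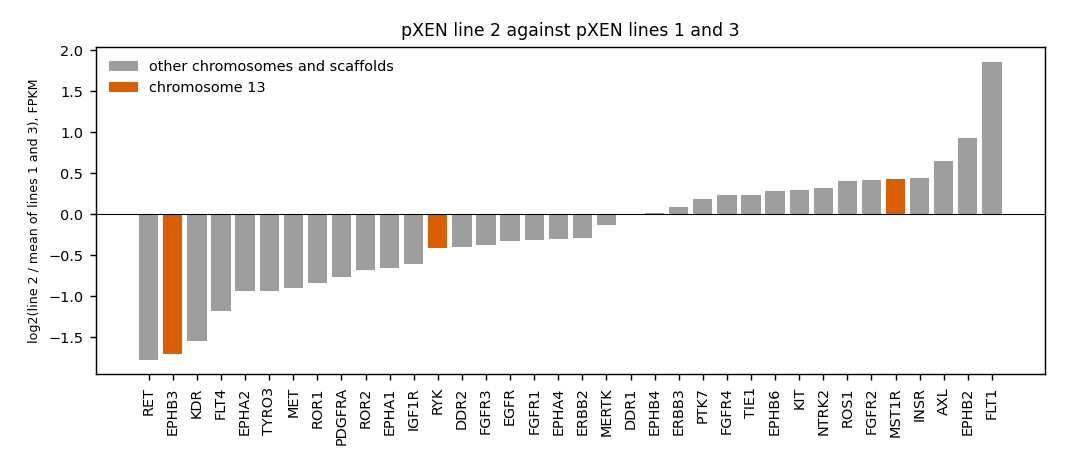
Bars of log2(FPKM of pXEN line 2 divided by the mean of pXEN lines 1 and 3) on the vertical axis, for the 36 receptor genes averaging 10 pXEN counts or more, with genes of chromosome 13 in orange. FLT1 is highest at 1.86 and RET lowest at −1.77, and 20 genes have their lowest pXEN value in line 2.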

How the data were processed

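rRNA-depleted RNA of 7 porcine cell lines was sequenced by the authors, with 1 library per line. Per the labels and the submitters' processing notes, the deposited counts are raw reads per gene, and these notes name HISAT2 2.0.5, featureCounts 1.5.0-p3, edgeR 3.22.5 and the build Sscrofa10.2. The strand setting of the counting is not given in the sources used here. The deposited FPKM values are these counts per kilobase of the listed gene length, scaled by 1 total per library by the authors. Columns of the authors' own annotation were used for names, positions and lengths.

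Lines were grouped by the labels into pXEN (n = 3), nESC (n = 2) and primed ESC (n = 2). Counts were fitted in R 4.3.3 with edgeR 4.0.16 (TMM scaling, filterByExpr, quasi-likelihood F-test, Benjamini-Hochberg over 17447 genes, common biological coefficient of variation 0.223), after the scripts had been tested on simulated data. SE was approximated as the absolute log2 fold change divided by the square root of F. Changes against a group at 0 counts are given against a floor of 3 counts over the group, and ratios against 1 to 3 counts with a 95% exact binomial interval. Intervals and floors cover counting error only.

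Members and gene lists were chosen with earlier results of these data known. Values are given in every line for receptors with a group mean of at least 10 FPKM, or called with an absolute log2 fold change of at least 2 and a group mean of at least 1 FPKM. Ligands and adaptors were named when called with such a change and a group mean of at least 5 FPKM. Genes described outside this rule (FLT3, FLT4, CSF1R, KDR, TIE1, ERBB4, INSRR, ROS1, ALK, MUSK, EPHA8 and EPHB1, to account for all members, and FGF2, FGF9, FGF17, FGF18, FGF21, KL, KLB, FLRT1, EGF, HBEGF, NRG4, GAS6, WNT5A, EFNA2, EFNB2, EFNB3 and LRP4) were chosen after their values were seen. Alternatives were upper-quartile and RLE scaling, other filters, DESeq2 1.42.0, limma 3.58.1 on log2(FPKM + 0.1) and log2(FPKM + 1), fits of only 2 cell types, a replicate block and leaving out each line.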

Additional observations from a re-analysis of the deposited data

How the results depend on the processing

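Each ESC type had 2 lines, and the effect of depth was not tested. Requiring 10 counts in every library, which leaves out receptors absent from a cell type, gave 15 higher and 2 lower in pXEN cells against nESCs, 8 and 5 against primed ESCs, and 11 and 0 in primed ESCs against nESCs. Over all genes the same filter gave 3367 higher and 3323 lower, 2877 and 2771, and 2056 and 1822 in these comparisons. Without 1 line, the genes lower in pXEN cells numbered 3 to 6 against nESCs and 9 to 16 against primed ESCs. FPKM rescaled to TPM summed to 1579 in pXEN cells, 645 in nESCs and 1257 in primed ESCs. At more than 3 counts in every line, 36, 30 and 45 genes were present in pXEN cells, nESCs and primed ESCs. Under upper-quartile scaling the medians of all genes in the 3 comparisons were −0.16, −0.09 and −0.06, against 0.00, −0.01 and 0.01.

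Some uncalled differences changed sign without 1 line, and the cause was not tested. The ranges were −0.28 to 0.15 for FGFR2, −0.03 to 0.24 for IGF1R and −0.06 to 0.42 for ROR1 in primed ESCs against nESCs, −1.18 to 0.86 for PDGFRB in pXEN cells against nESCs, and −0.34 to 0.22 for MET in pXEN cells against primed ESCs. With a replicate block, IGF1R was −0.01 in pXEN cells against primed ESCs, and calls of FGFR1, EPHA2, PTK7 and DDR1 were lost as given above, RET was called lower in pXEN cells than in primed ESCs (0.0162), and calls were lost for NRTN (0.0705), FGF2 (0.0582) and FGF17 (0.159) in pXEN cells against primed ESCs, FGF9 (0.0582) and FGF18 (0.0993) in pXEN cells against nESCs and EFNA3 (0.0533) in primed ESCs against nESCs. Whether same-numbered lines of different types are related is not stated in the sources used here. Over 17447 genes, the difference of line 1 minus line 2 correlated at −0.00892 between nESCs and primed ESCs. It correlated at 0.0173 between nESCs and pXEN cells and at 0.0332 between primed ESCs and pXEN cells. With 1 such difference per type, these values cannot show whether lines share an origin. Of all values recomputed, 3211 kept their direction and side of the threshold, 134 lost a call, 21 gained one and 8 changed sign.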
